A study of Canis lupus familiaris with 15 samples.

Results

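Wnt signaling genes were followed in 3 comparisons of canine osteosarcoma cells, which are tumor cells of the bone-forming lineage. The genes were taken by symbol: the Wnt ligands, the Frizzled receptors, the LRP, ROR and RYK co-receptors, the secreted and surface antagonists, the R-spondin axis, the Dishevelled, Axin and Naked proteins with beta-catenin, and the TCF/LEF and TLE nuclear factors. The rule used no expression value. It took 40 genes of the 7698 listed in at least 1 table, with 16 of 4412 genes in the D17 table, 11 of 1189 in the HMPOS table and 34 of 5746 in the HMPOS against POS table. The RefSeq annotation of the dog held 77 symbols that met the rule, and these included all 40.

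The study sequenced RNA from 15 libraries, 3 in each of 5 groups. Extravasated D17 and extravasated HMPOS are extravasation-positive sublines, grown in culture from tumor cell clusters that had left the vessels of Tg(fli1a:EGFP) zebrafish embryos. Parental D17, parental HMPOS and parental POS cells are the original lines, and no D17 or HMPOS control cells had passed through a fish. HMPOS is a highly metastasizing derivative of POS. The sublines were expanded before RNA was taken, so exposure to the fish, the exit from the vessel and the regrowth in culture cannot be told apart. Each deposited table gave 1 FPKM value for each group (fragments scaled to transcript length and to library size), pooled over its 3 libraries. The spread between libraries and the depth are therefore unknown, and no SD, interval or test could be computed. A gene is listed only where the authors' own test called the 2 groups different, and a gene that is not listed was not analysed here. All comparisons below are between these group values, and no replicate check of them could be made here. In the tables the extravasated cells carry the word meta and the other cells the word norm, which was read as parental since POS, with parental libraries alone, carries it. Every direction between extravasated and parental cells rests on that reading, and with the names exchanged each of them is turned. The article reports more downregulated than upregulated genes in the extravasated cells of both lines. Under the reading used here, more of the listed genes were higher than lower in both lines. Which reading holds could not be settled from the group values.

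The 8 bone lineage markers gave 3, 4 and 4 listed genes in the D17, HMPOS and HMPOS against POS tables, and their directions differed. COL1A1, a collagen chain of bone matrix, was listed in all 3 tables, at 397 and 224 FPKM in extravasated and parental D17, 102 and 76.0 FPKM in extravasated and parental HMPOS, and 213 FPKM in POS. In D17 the matrix genes COL1A2, at 1360 and 493 FPKM, and SPP1, at 25.2 and 3.71 FPKM, were also higher in extravasated cells. In HMPOS the mineralization genes ALPL, at 79.2 and 40.9 FPKM, and BGLAP, at 46.3 and 27.3 FPKM, were higher and IBSP, at 0.427 and 2.05 FPKM, lower in extravasated cells. Between parental HMPOS and POS, BGLAP was at 27.3 and 676 FPKM and SPP1 at 1.73 and 13.8 FPKM, both lower in HMPOS, while SP7, an osteoblast transcription factor, was at 54.5 and 41.7 FPKM. The part of these differences in those of the Wnt genes was not tested. None of the 5 leukocyte markers was listed, and KDR was the 1 endothelial marker listed, at 0.146 FPKM in HMPOS against 1.73 FPKM in POS. EPCAM was the 1 epithelial marker listed, at 1.72 FPKM in extravasated against 0.431 FPKM in parental D17 cells. In bulk RNA, fewer cells that express a gene and less of its RNA in each cell cannot be told apart.

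Wnt ligands are lipid-modified secreted proteins, which the acyltransferase PORCN modifies and the carrier WLS brings to the cell surface. On the receiving cell they bind Frizzled receptors together with LRP5 or LRP6, and Dishevelled proteins then halt the breakdown of beta-catenin, which enters the nucleus and acts with TCF/LEF factors. Other ligands such as WNT5A signal through ROR and RYK without beta-catenin. Secreted antagonists of the SFRP, DKK and WIF families hold ligands or co-receptors, and AXIN2 and NKD proteins are feedback inhibitors that the pathway itself induces. In bone, Wnt signaling is a known driver of osteoblast formation.

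Extravasated D17 cells had higher values than parental D17 cells for 14 of the 16 listed Wnt genes, against 54.2% of all genes in that table. FZD5 and TCF7L2 were the 2 lower ones, against 45.8% of all genes. At a fold of more than 2, 6 Wnt genes were higher (37.5%, against 18.2% of all listed genes) and 0 were lower (against 8.43%). The 6 higher genes became 1 with a pseudocount of 1 FPKM, a setting at which the share of all listed genes was not computed. The median log2 ratio, extravasated over parental, was 0.77 for the Wnt genes and 0.39 for all listed genes, and taken relative to that 0.39 the same split of 14 and 2 remained, with 2 genes past the fold of 2 (12.5%, against 10.7% of all listed genes). With the group names exchanged, 2 Wnt genes were higher and 14 lower, and the median was -0.77.

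The largest ratio among the Wnt genes of D17 was that of SFRP2, a secreted Frizzled-related protein that binds Wnt ligands. SFRP2 (ENSCAFG00000008353, chromosome 15 from 51540439 to 51548833) was at 1901 FPKM in extravasated against 469 FPKM in parental D17 cells, 4.06-fold higher. It was already an abundant transcript, ranking 91 by FPKM among the 4412 listed genes in parental cells and 36 in extravasated cells. AXIN2, the feedback scaffold of beta-catenin breakdown, was next (ENSCAFG00000011236, chromosome 9 from 14560750 to 14589002). AXIN2 was at 1.90 FPKM in extravasated against 0.490 FPKM in parental cells, 3.89-fold higher but at a far lower level than SFRP2 on the same FPKM scale. Its log2 ratio of 1.96 was 0.96 with a pseudocount of 1 FPKM.

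Both listed ligands were higher in extravasated D17 cells, against 54.2% of all listed genes. WNT3, a ligand that acts through beta-catenin (ENSCAFG00000013442, chromosome 9 from 10081636 to 10086581), was at 1.43 FPKM in extravasated against 0.583 FPKM in parental cells, 2.45-fold higher, and its log2 ratio of 1.29 was 0.62 with a pseudocount of 1 FPKM. WNT5B, which is close in sequence to WNT5A (ENSCAFG00000015919, chromosome 27 from 43662485 to 43676078), was at 5.14 and 2.17 FPKM, 2.37-fold higher. Its log2 ratio of 1.25 was 0.96 with a pseudocount of 1 FPKM. The 2 genes of ligand export were also higher, by smaller folds. PORCN was at 13.6 FPKM in extravasated against 7.84 FPKM in parental cells, 1.73-fold higher, and WLS at 105 and 67.0 FPKM, 1.56-fold higher.

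Of the 5 receptors and co-receptors listed for D17, 4 were higher in extravasated cells, against 54.2% of all listed genes. Past the fold of 2, 1 of the 5 was higher, near the 18.2% of all listed genes. That 1 was LRP5, a co-receptor for beta-catenin signaling (ENSCAFG00000010871, chromosome 18 from 49289723 to 49540235), at 5.54 FPKM in extravasated against 2.41 FPKM in parental cells, 2.30-fold higher. LRP4, a related receptor that binds sclerostin, was at 2.12 and 1.12 FPKM, 1.89-fold higher. RYK, a kinase-like Wnt receptor, had the highest level of the 5 at 284 FPKM in extravasated against 206 FPKM in parental cells, 1.38-fold higher. The Frizzled receptors went opposite ways. FZD3 was at 3.65 FPKM in extravasated against 2.51 FPKM in parental cells, and FZD5 at 5.38 and 8.15 FPKM, with log2 ratios of 0.54 and -0.60.

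All 4 listed cytoplasmic genes were higher in extravasated D17 cells, AXIN2 included, against 54.2% of all listed genes. CTNNB1, which encodes beta-catenin, was at 230 FPKM in extravasated against 141 FPKM in parental cells, 1.63-fold higher. DVL1, a Dishevelled protein, was at 13.5 and 8.02 FPKM, 1.68-fold higher, and its relative DVL3 at 14.2 and 10.7 FPKM, 1.34-fold higher. The nuclear factors were split. TCF7L2, a DNA-binding partner of beta-catenin, was at 2.52 FPKM in extravasated against 3.63 FPKM in parental cells, which is -0.53 on the log2 scale. TLE2, a Groucho-type co-repressor, was 2.15-fold higher but low in both groups, at 0.794 and 0.370 FPKM, and its log2 ratio of 1.10 was 0.39 with a pseudocount of 1 FPKM.

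**Figure D1:**
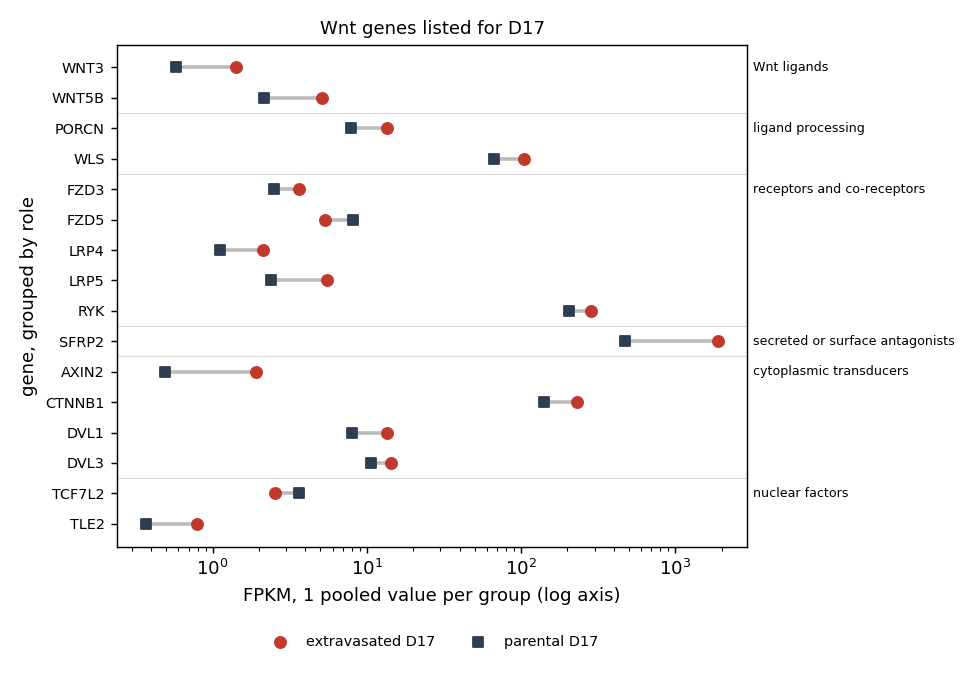
FPKM (log axis) of the 16 Wnt genes listed for D17, grouped by role, with circles for extravasated and squares for parental cells and 1 pooled value per group, so no error bars. Circles lie to the right of squares for 14 genes and to the left for FZD5 and TCF7L2, and SFRP2 stands highest at 1901 and 469 FPKM.

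In HMPOS, 9 of the 11 listed Wnt genes were higher in extravasated than in parental cells, in a table where 67.0% of all genes were higher, and 2 were lower, where 33.0% of all genes were. Past the fold of 2, 2 Wnt genes were higher (18.2%, against 20.4% of all listed genes) and 0 lower (against 4.63%). The median log2 ratio was 0.57 for the Wnt genes and 0.58 for all listed genes. Relative to that 0.58 the split was 5 higher and 6 lower, with DKK3, FZD1, FZD2 and LRP4 changing sign. With the group names exchanged, 2 Wnt genes were higher and 9 lower, and the median was -0.57.

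DKK2 had the largest ratio. It is a secreted Dickkopf protein that binds LRP5 and LRP6 and can block or, in some settings, weakly activate the pathway. DKK2 (ENSCAFG00000011087, chromosome 32 from 27548646 to 27646935) was at 1.92 FPKM in extravasated against 0.140 FPKM in parental HMPOS cells, 13.7-fold higher. The size of that ratio depends on the low parental value, since its log2 of 3.78 was 3.07 with a pseudocount of 0.1 FPKM and 1.36 with a pseudocount of 1 FPKM. Its ratio ranked 4 among the 796 genes with a ratio that were higher in extravasated HMPOS cells. NKD2, a feedback inhibitor that binds Dishevelled (ENSCAFG00000010833, chromosome 34 from 11447887 to 11452126), was at 3.03 and 1.28 FPKM, 2.37-fold higher. The log2 ratio of NKD2, 1.25, was 0.82 with a pseudocount of 1 FPKM. Both genes were at low levels in parental cells, at ranks 1186 and 991 of the 1189 listed.

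The other secreted antagonists went both ways. WIF1, which binds Wnt ligands outside the cell, had the lower ratio of the 2 lower genes, at 58.6 FPKM in extravasated against 105 FPKM in parental HMPOS cells, 1.78-fold lower. SFRP4, another Frizzled-related protein, was at 4.45 FPKM in extravasated against 2.52 FPKM in parental cells, 1.77-fold higher. DKK3, a divergent Dickkopf protein that does not act through LRP6 as the others do, was at 79.4 and 57.4 FPKM, 1.38-fold higher and below the median ratio of the table.

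All 4 listed receptors were higher in extravasated HMPOS cells by less than the fold of 2, where 67.0% of all listed genes were higher. Of these receptors, FZD1, FZD2 and LRP4 were lower once the median ratio of the table was taken off. ROR1, a receptor tyrosine kinase-like protein for WNT5A, was at 4.54 FPKM in extravasated against 2.46 FPKM in parental cells, 1.85-fold higher. FZD1 was at 13.2 and 8.92 FPKM, FZD2 at 51.2 and 38.1 FPKM and LRP4 at 23.8 and 17.1 FPKM, with folds from 1.34 to 1.48. Of the nuclear factors, LEF1, which carries beta-catenin to DNA, was the other lower gene, at 12.0 FPKM in extravasated against 18.4 FPKM in parental cells, 1.53-fold lower. TLE3, a co-repressor of TCF/LEF factors, was at 3.36 and 1.93 FPKM, 1.74-fold higher.

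**Figure D2:**
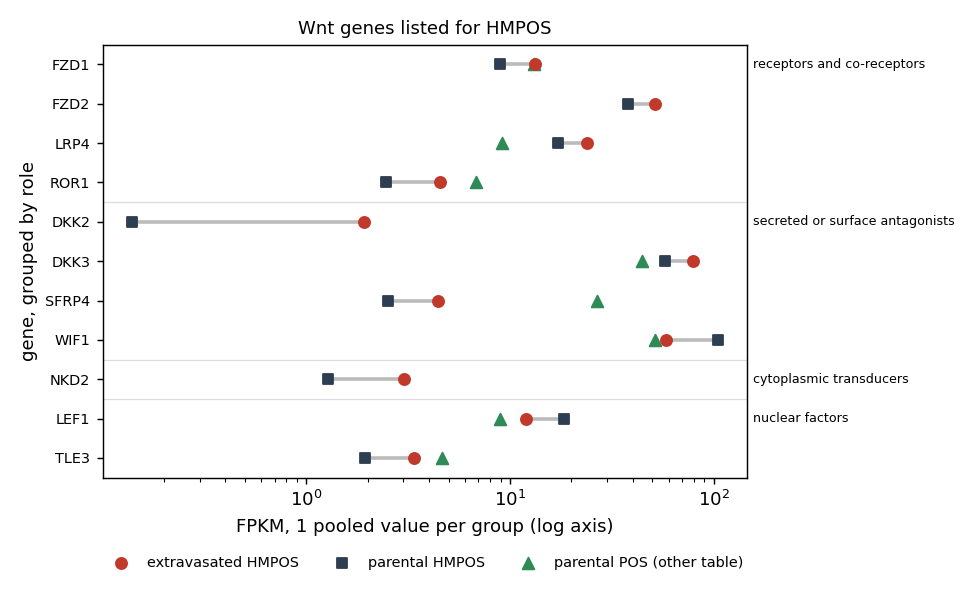
FPKM (log axis) of the 11 Wnt genes listed for HMPOS, with circles for extravasated HMPOS, squares for parental HMPOS and triangles for parental POS, the last from the other table for the 8 genes it also lists, and 1 pooled value per group without error bars. Circles lie to the right of squares for 9 genes, of which DKK3, FZD1, FZD2 and LRP4 turn lower once centred on the median of the table, and to the left for WIF1 and LEF1, and the widest gap is that of DKK2, from 0.140 to 1.92 FPKM.

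The D17 and HMPOS tables share no libraries, and LRP4 was the 1 Wnt gene in both of them, which is 6.25% of the D17 Wnt genes and 9.09% of the HMPOS ones. Of all genes, 614 were in both tables, 13.9% of the D17 table and 51.6% of the HMPOS table. LRP4 had the higher value in extravasated cells in each line, with log2 ratios of 0.92 in D17 and 0.48 in HMPOS, the latter at -0.11 relative to the median of its table. A gene missing from a table is not shown to be the same in the 2 groups, so whether the lines differ in their Wnt genes was not tested.

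Of the 34 Wnt genes listed for parental HMPOS against parental POS cells, 13 were higher in HMPOS (38.2%, against 47.7% of all listed genes) and 21 were lower (61.8%, against 52.3%). Past the fold of 2, 5 were higher (14.7%, against 8.23% of all listed genes) and 11 were lower (32.4%, against 18.9%). The median log2 ratio of HMPOS over POS was -0.56 for the 33 Wnt genes with a ratio and -0.31 for all listed genes. Relative to that -0.31 the past-fold split moved to 9 higher (26.5%, against 17.2% of all listed genes) and 7 lower (20.6%, against 13.0%), while no single gene changed sign.

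Among the ligands, 4 were lower and 2 higher in HMPOS than in POS, against 52.3% and 47.7% of all listed genes. WNT5A, the ligand best known for signaling without beta-catenin (ENSCAFG00000029321, chromosome 20 from 34769929 to 34791317), was at 6.99 FPKM in HMPOS against 18.5 FPKM in POS, 2.65-fold lower. WNT9A, a ligand of joint and bone development (ENSCAFG00000031441, chromosome 14 from 953395 to 959328), was at 0.728 and 3.52 FPKM, 4.84-fold lower, and its log2 ratio of -2.27 was -1.39 with a pseudocount of 1 FPKM. WNT5B at 9.04 and 14.2 FPKM and WNT3 at 2.55 and 4.59 FPKM were lower by 1.57-fold and 1.80-fold. WNT7A was 1.73-fold higher, at 2.07 FPKM in HMPOS against 1.19 FPKM in POS. WNT16, a ligand with a known role in cortical bone, was at 0.694 FPKM in HMPOS and listed at 0 in POS, so no ratio was taken. PORCN, the acyltransferase for these ligands, was at 10.6 FPKM in HMPOS against 14.2 FPKM in POS, which is -0.42 on the log2 scale.

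The receptors were also split, with 3 of 9 higher and 6 lower in HMPOS, against 47.7% and 52.3% of all listed genes. FZD6 (ENSCAFG00000000654, chromosome 13 from 4732855 to 4771294) stood apart from the other Frizzled genes at 36.9 FPKM in HMPOS against 11.0 FPKM in POS, 3.36-fold higher. FZD7 (ENSCAFG00000012407, chromosome 37 from 11054383 to 11063127) was at 2.30 and 6.74 FPKM, 2.92-fold lower. FZD1 at 8.91 and 13.1 FPKM and FZD5 at 3.88 and 6.26 FPKM were lower, and FZD3 at 5.89 and 4.21 FPKM was higher, each by less than the fold of 2.

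The non-Frizzled receptors ROR1, ROR2 and RYK were all lower in HMPOS, as was WNT5A, against 52.3% of all listed genes. ROR1 (ENSCAFG00000018635, chromosome 5 from 46009943 to 46302271) was at 2.45 FPKM in HMPOS against 6.80 FPKM in POS, 2.77-fold lower. ROR2 was at 14.2 and 20.9 FPKM and RYK at 114 and 162 FPKM, lower by 1.47-fold and 1.43-fold. LRP4 differed in direction from these 3, at 17.1 FPKM in HMPOS against 9.13 FPKM in POS, 1.87-fold higher. Of the R-spondin axis, which keeps Frizzled receptors at the surface, the receptor LGR4 was 1.63-fold higher at 12.6 and 7.76 FPKM, and the ligand RSPO2 was 1.51-fold lower at 3.52 and 5.31 FPKM.

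Of the 6 listed antagonists, 3 were higher and 3 lower in HMPOS, near the 47.7% and 52.3% of all listed genes. All 3 SFRP genes were lower in HMPOS than in POS. SFRP4 (ENSCAFG00000003646, chromosome 18 from 12011778 to 12028619) had the widest gap of all 33 Wnt genes with a ratio, at 2.51 FPKM in HMPOS against 26.8 FPKM in POS, 10.6-fold lower. SFRP2 was at 1889 and 4339 FPKM, 2.30-fold lower, and ranked 3 by FPKM among the 5746 listed genes in POS and 17 in HMPOS. SFRP1 was at 2.74 and 4.30 FPKM, 1.57-fold lower.

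The antagonists outside the SFRP family were higher in HMPOS. APCDD1, a membrane protein that binds Wnt and LRP proteins (ENSCAFG00000018737, chromosome 7 from 76336354 to 76367037), was at 70.5 FPKM in HMPOS against 15.2 FPKM in POS, 4.63-fold higher and the largest such ratio of the group. WIF1 (ENSCAFG00000000364, chromosome 10 from 7659240 to 7726642) was at 104 and 51.4 FPKM, 2.03-fold higher. DKK3 was at 57.3 and 44.3 FPKM, 1.29-fold higher.

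The DNA-binding partners of beta-catenin fell on opposite sides. LEF1 (ENSCAFG00000011252, chromosome 32 from 28514866 to 28633575) was at 18.4 FPKM in HMPOS against 8.97 FPKM in POS, 2.05-fold higher, and TCF7 (ENSCAFG00000000990, chromosome 11 from 22313031 to 22343785) at 3.104 and 1.540 FPKM, 2.02-fold higher. TCF7L1, which mostly represses its targets (ENSCAFG00000007832, chromosome 17 from 39698473 to 39858154), was at 11.5 FPKM in HMPOS against 25.9 FPKM in POS, 2.25-fold lower. TCF7L2 (ENSCAFG00000011005, chromosome 28 from 23859279 to 24164669) was at 1.46 and 4.44 FPKM, 3.05-fold lower. By FPKM, TCF7L1 was the most abundant of the 4 in POS and LEF1 in HMPOS. The ratios of LEF1, TCF7 and WIF1 lie just past the fold of 2, and that of LRP4 just short of it.

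The listed co-repressors that these factors recruit, TLE2 and TLE3, were lower in HMPOS and past the fold of 2. Of all listed genes, 52.3% were lower, 18.9% past that fold. TLE2 (ENSCAFG00000019293, chromosome 20 from 56138658 to 56157763) was at 4.28 FPKM in HMPOS against 14.5 FPKM in POS, 3.39-fold lower, and TLE3 (ENSCAFG00000017589, chromosome 30 from 33849642 to 33895213) at 1.93 and 4.63 FPKM, 2.40-fold lower. The log2 ratio of TLE3, -1.26, was -0.94 with a pseudocount of 1 FPKM. The feedback inhibitors AXIN2 and NKD1 went opposite ways. AXIN2 was at 7.17 FPKM in HMPOS against 15.6 FPKM in POS, 2.17-fold lower, and NKD1 at 3.14 and 1.92 FPKM, 1.64-fold higher. The Dishevelled genes DVL1, at 7.85 and 10.2 FPKM, and DVL3, at 34.0 and 24.5 FPKM, had log2 ratios of -0.38 and 0.47.

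**Figure D3:**
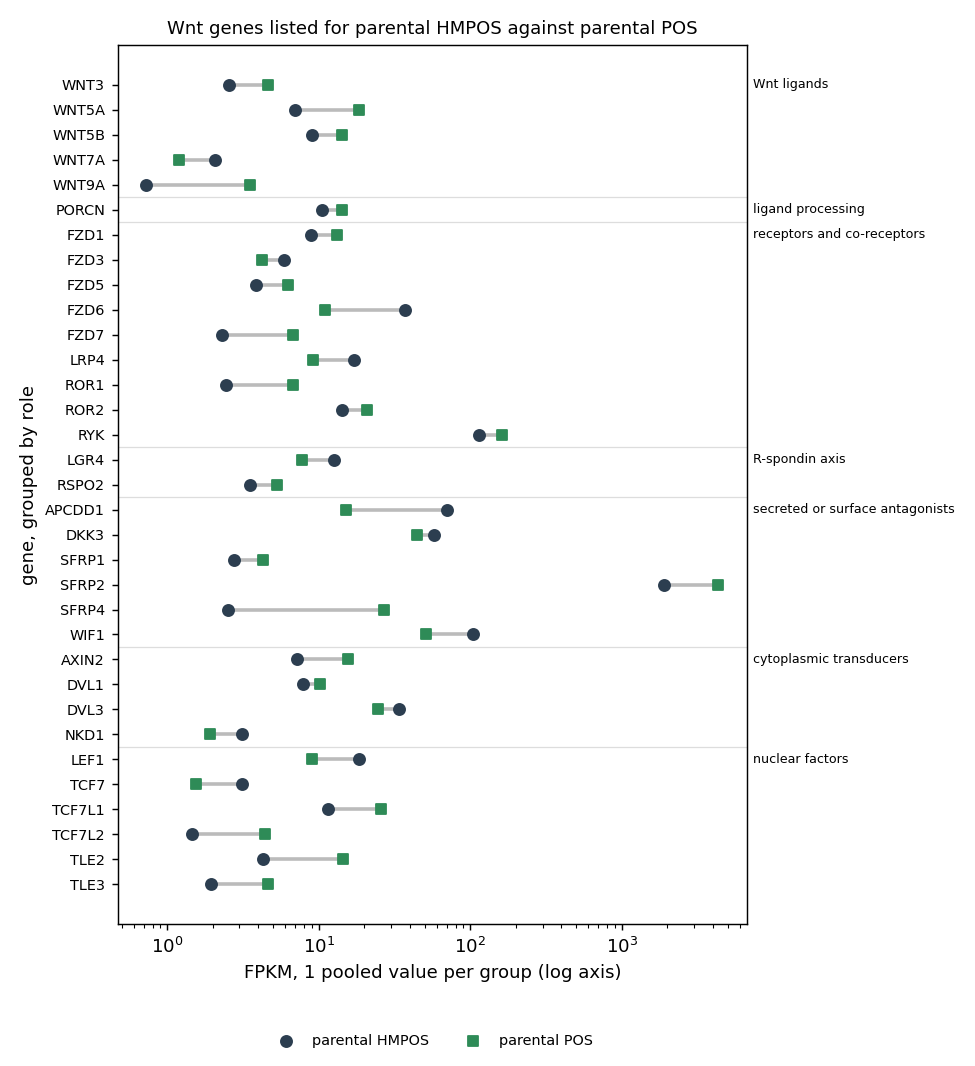
FPKM (log axis) of 33 Wnt genes in parental HMPOS (circles) and parental POS (squares), grouped by role, with 1 pooled value per group and no error bars; WNT16 is left out since it is listed at 0 in POS. Squares lie to the right for all 3 SFRP genes, for ROR1, ROR2 and RYK and for TCF7L1, TCF7L2, TLE2 and TLE3, and circles lie to the right for LEF1, TCF7, WIF1 and APCDD1.

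The 8 Wnt genes listed in both HMPOS tables allow 3 groups to be set side by side, with the same parental HMPOS libraries in both tables. The tables were normalized separately, yet parental HMPOS values of the 8 genes differed between them by at most 0.00169 on the log2 scale. WIF1 was at 58.6 FPKM in extravasated HMPOS, 105 FPKM in parental HMPOS and 51.4 FPKM in parental POS. LEF1 was at 12.0, 18.4 and 8.97 FPKM in the same order. These are the genes that were lower in extravasated HMPOS cells.

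Of the genes higher in extravasated HMPOS cells, FZD1 was at 13.2, 8.92 and 13.1 FPKM in extravasated HMPOS, parental HMPOS and parental POS, and ROR1 at 4.54, 2.46 and 6.80 FPKM. TLE3 was at 3.36, 1.93 and 4.63 FPKM, and SFRP4 at 4.45, 2.52 and 26.8 FPKM. LRP4, at 23.8, 17.1 and 9.13 FPKM, and DKK3, at 79.4, 57.4 and 44.3 FPKM, were highest in the extravasated cells and lowest in POS. Since both ratios of a gene use the parental HMPOS value, their directions are not independent of each other.

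**Figure D4:**
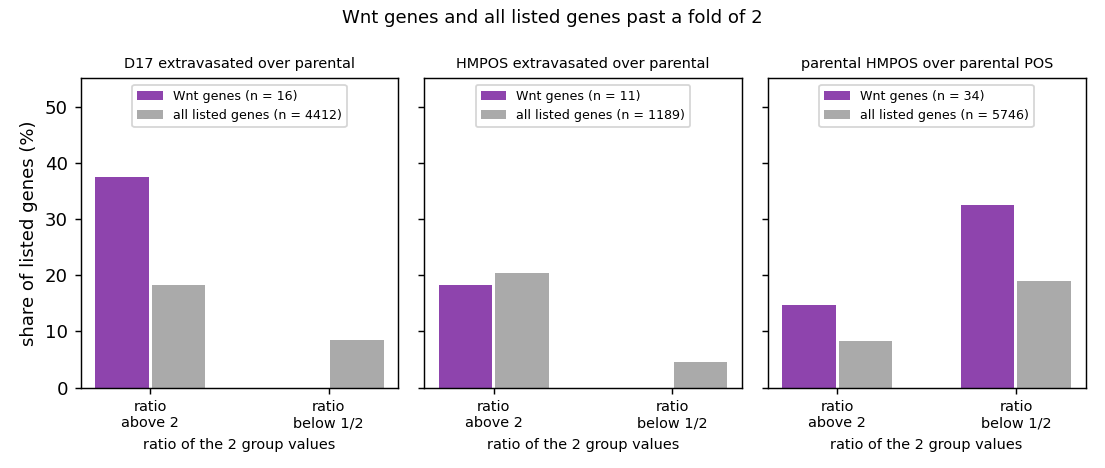
Share of listed genes (percent, bars from 0) with a ratio of group values above 2 or below its inverse, for the Wnt genes (purple) and for all listed genes (gray) in each comparison. For higher genes the purple bar is at 37.5% against 18.2% in D17 and 18.2% against 20.4% in HMPOS. For lower genes it is at 0% against 8.43% in D17 and 0% against 4.63% in HMPOS. In parental HMPOS against POS it is at 14.7% against 8.23% for higher genes and 32.4% against 18.9% for lower genes.

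Other genes of the pathway were followed in 4 lists: further parts of the beta-catenin breakdown complex and of co-receptor control, further transcription partners of beta-catenin, the planar polarity and calcium branch, and genes reported as beta-catenin targets. In D17 cells all 6 listed transcription partners were lower in extravasated cells, none past the fold of 2, with a median log2 ratio of -0.50, while 45.8% of all listed D17 genes were lower, 8.43% past the fold of 2, and their median was 0.39. Among them were the chromatin remodeler SMARCA4, at 25.6 FPKM in extravasated against 37.3 FPKM in parental cells, and PYGO2, which links beta-catenin to chromatin, at 10.4 and 15.3 FPKM. None of these 15 genes was listed for HMPOS. Of the breakdown complex list, 2 genes were listed for D17, both higher, against 54.2% of all listed D17 genes, and 0 for HMPOS.

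In the planar polarity and calcium list, extravasated D17 cells had 6 of 10 listed genes higher and 4 lower, near the 54.2% and 45.8% of all listed genes. NFATC4, a calcium-regulated transcription factor, was at 20.2 FPKM in extravasated against 8.56 FPKM in parental cells, and PRKCA, a protein kinase C, at 10.9 and 33.5 FPKM. In HMPOS 3 genes of this list were listed, 2 higher and 1 lower, near the 67.0% and 33.0% of all listed genes. PRKCA was at 24.9 FPKM in extravasated against 17.8 FPKM in parental HMPOS cells.

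Of the reported beta-catenin targets, 9 of 14 listed genes were higher in extravasated D17 cells and 5 were lower, against 54.2% and 45.8% of all listed genes, with a median log2 ratio of 0.61 beside 0.39 for all listed genes. Past the fold of 2, 2 targets were higher and 3 lower, against 18.2% and 8.43% of all listed genes. WISP2 and EDN1 were the higher ones, at 1.32 and 0.460 FPKM and at 11.5 and 3.55 FPKM in extravasated and parental cells. FOSL1, a part of AP-1, was lower at 7.82 and 25.4 FPKM, as were TNFRSF19 at 9.21 and 22.6 FPKM and BIRC5, an inhibitor of apoptosis active in mitosis, at 140 and 297 FPKM.

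In HMPOS, 5 of the 7 listed targets were higher in extravasated cells and 2 were lower, where 67.0% of all listed genes were higher. The 4 past the fold of 2, which 20.4% of all listed genes were, were WISP2 at 4.08 and 1.31 FPKM, the cyclin gene CCND2 at 3.85 and 1.59 FPKM, JUN at 87.7 and 39.8 FPKM and FOSL1 at 4.92 and 2.33 FPKM. TNFRSF11B, which encodes the osteoclast inhibitor osteoprotegerin, was at 37.3 FPKM in extravasated against 74.6 FPKM in parental HMPOS cells. Of the 5 targets listed for both lines, WISP2 and GJA1 were higher in the extravasated cells of each. FOSL1 and CCND2 were lower in D17 and higher in HMPOS, with CCND2 at 10.5 FPKM in extravasated against 13.8 FPKM in parental D17 cells. L1CAM was at 0.820 and 0.410 FPKM in D17 and at 43.5 and 63.3 FPKM in HMPOS. These differences between the lines were not tested.

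Between parental HMPOS and POS, 7 of 18 listed targets were higher in HMPOS and 11 lower, against 47.7% and 52.3% of all listed genes, with a median log2 ratio of -0.57 beside -0.31 for all listed genes. The gap junction gene GJA1 was at 109 FPKM in HMPOS against 846 FPKM in POS, and CCND2 at 1.59 and 18.4 FPKM. In the opposite direction TNFRSF11B was at 74.5 FPKM in HMPOS against 15.4 FPKM in POS, and TNFRSF19, a receptor of the same superfamily, at 107 and 23.0 FPKM. Of the breakdown complex list, 4 of 7 listed genes were higher and 3 lower. GSK3B, the kinase that marks beta-catenin for breakdown, was at 14.4 FPKM in HMPOS against 6.37 FPKM in POS, while CTNNBIP1, which keeps beta-catenin from TCF factors, was at 13.5 and 30.4 FPKM. Of the transcription partners, 3 of 7 were higher and 4 lower, none past the fold of 2, and of the polarity and calcium list 4 of 13 were higher and 9 lower. PRICKLE1, a planar polarity protein, was at 16.9 FPKM in HMPOS against 41.0 FPKM in POS.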

How the data were processed

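The authors deposited 3 tables of genes, 1 for each comparison, with 1 FPKM value for each group, beside the log2 ratio, p-value and q-value of their own test. Only the FPKM values, gene names and positions were used here, and every row was marked significant. The submitters' processing notes name Trimmomatic 0.38, TopHat2, Cufflinks, Cuffdiff and CanFam3.1, whereas the article describes STAR, voom and limma, and the tables have the columns of Cuffdiff. Positions are those of the tables, which do not state whether counting starts at 0. RefSeq symbols came from the annotation of UU_Cfam_GSD_1.0.

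Ratios were computed without a pseudocount. The 8 D17 rows, 3 HMPOS rows and 28 HMPOS against POS rows with a 0 in either group entered the counts by direction only. A fold above 2, as in the article, was the threshold. Every listed Wnt gene was named, with its position where it was past that fold and at 1 FPKM or more. The members and lists were chosen with earlier results of these data known. The counting was tested on simulated data. Fits per library, named in the design, were not possible with pooled values. Depth per sample was unknown. Python 3.11.15, numpy 2.4.6, pandas 2.3.3 and matplotlib 3.10.9 were used.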

Additional observations from a re-analysis of the deposited data

How the results depend on the processing

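At a fold above 1.5, the Wnt genes past the threshold were 11 higher and 1 lower in extravasated D17 and 5 higher and 2 lower in extravasated HMPOS. In parental HMPOS against POS they were 9 higher and 16 lower. With no fold threshold they were 14 higher and 2 lower in D17, 9 higher and 2 lower in HMPOS, and 13 higher and 21 lower in HMPOS against POS. With a pseudocount of 1 FPKM the higher genes numbered 1 for D17, 1 for HMPOS and 3 for HMPOS against POS. The lower genes numbered 0, 0 and 10 in the same order, and the median log2 ratios were 0.63, 0.52 and -0.51. With a pseudocount of 0.1 FPKM the medians were 0.76, 0.56 and -0.55. Leaving out genes below 1 FPKM in both groups gave a D17 median of 0.75. Centred on the median of all listed genes, which is no neutral reference since all of them passed the authors' test, there were 2 higher genes in D17, 1 higher and 2 lower in HMPOS, and 9 higher and 7 lower in HMPOS against POS, and the medians were 0.38, -0.019 and -0.26. The median of HMPOS thereby changed sign, as did DKK3 at -0.12, FZD1 at -0.019, FZD2 at -0.16 and LRP4 at -0.11. No other single Wnt gene changed sign under a pseudocount or centring. With the group names meta and norm exchanged, a setting chosen after seeing the data, 0 genes were higher and 6 lower past the fold of 2 in D17 and 0 higher and 2 lower in HMPOS, with medians of -0.77 and -0.57. The remaining counts stayed within 1.5 times of their reported values.

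No paired analysis was possible because each group is given as 1 pooled value, although the libraries of each group are numbered 1 to 3. Leaving out a replicate was not run for the same reason. The depth is unknown, and TLE2 in D17 and WNT16 in HMPOS against POS were below 1 FPKM in both groups.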

Other observations

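Some of the Wnt genes lie on the same chromosome in the tables' coordinates, mostly with gaps of several Mb. DKK2 and LEF1 are 0.868 Mb apart on chromosome 32 and had opposite directions in extravasated HMPOS cells, with log2 ratios of 3.78 and -0.62. FZD6 and RSPO2 are 3.839 Mb apart on chromosome 13 and had opposite directions between parental HMPOS and POS, at 1.75 and -0.59. WNT3 and AXIN2 are 4.474 Mb apart on chromosome 9 and were both higher in extravasated D17 cells and both lower in HMPOS than in POS. AXIN2 and FZD2 are 4.300 Mb apart on chromosome 9, and no comparison listed both. FZD7 and FZD5 are 5.061 Mb apart on chromosome 37 and were both lower in HMPOS than in POS.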
